A study of Mus musculus with 10 samples.

Results

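Gene expression was compared between cells of the mouse line EML-C1 grown for 6 days with erythropoietin (EPO) and cells of the same line grown for 6 days with interleukin 3 (IL-3), all-trans retinoic acid (ATRA) and, later, granulocyte-macrophage colony-stimulating factor (GM-CSF). A gene was counted as apart when its signals on both arrays differed by at least 2-fold and its probe was well above background on the brighter array. Of 20624 genes with a named probe, 13026 were well above background on at least 1 of the 2 arrays, and 5039 of those (38.7%) were apart. Among the 13026 genes, 2443 (18.8%) were higher under EPO and 2596 (19.9%) were higher under IL-3/GM-CSF. At 8-fold or more the counts were 235 genes higher under EPO and 676 higher under IL-3/GM-CSF, and at 64-fold or more they were 43 and 154.

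The EPO array holds cells given 10 ng/ml EPO from the start of culture and again later. The IL-3/GM-CSF array holds cells given 10 ng/ml IL-3 with 10 µM ATRA from the start and 10 ng/ml GM-CSF after day 3. A combined array holds cells given EPO, IL-3, ATRA and GM-CSF together until day 6, and an untreated array holds the line before cytokines were added. Day 3 arrays, taken before GM-CSF was given (called IL-3 here, with ATRA included), exist for each of the 3 treatments in a Sca1-low and a Sca1-high fraction, Sca1 being a surface protein of blood progenitors encoded by Ly6a. All arms shared horse serum and medium conditioned by a cell line that secretes stem cell factor (BHK/MKL), at a lowered share after day 3. The labels speak of RNA from sorted subpopulations, but name no Sca1 fraction for the day 6 arrays. EML lines were made with a dominant-negative retinoic acid receptor alpha and all arrays hold cells of that 1 line.

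EPO binds its receptor on erythroid precursors and keeps them alive while GATA1, KLF1 and TAL1 switch on globin, haem, iron and membrane genes. IL-3 and GM-CSF signal through receptors that share the beta chain encoded by Csf2rb, and retinoic acid is long known to favour the granulocyte fate. Along that path C/EBP factors, PU.1 and GFI1 act with the genes of granule proteins, which are made in waves: azurophil granule proteins first, specific and gelatinase granule proteins later.

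Each treatment was measured on 1 array, so there is no replicate check, no test and no spread between cultures for any difference given here. A level is the log2 of a signal over its array's 75th percentile, and a difference is the EPO level minus the IL-3/GM-CSF level of the same probe. Repeat spots give the technical error only: over 196 probes the median SD of a difference was 0.099 log2 and the largest 1.04. Other probes of the same gene gave a difference of the same sign for 89.0% of 607 probes of genes higher under EPO and for 93.3% of 623 probes of genes higher under IL-3/GM-CSF, and were at least 2-fold apart the same way for 64.1% and 81.2% of them. They were at least 2-fold apart the opposite way for 32 and 18. These are the other probes well above background on at least 1 of both arrays. Where a probe was not well above background on the dimmer array, the fold is a lower bound, taken against the higher of that array's lowest well-above-background signal and the probe's own value. Such bounds cover 478 genes higher under EPO and 1280 higher under IL-3/GM-CSF, and 12 and 282 of them have a bound under 2-fold. All folds in the text use these bounds. They are written "at least" where a bound applies.

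The 2 arrays lay on different slides, so for this pair slide and treatment cannot be told apart. The untreated, EPO and combined day 6 arrays shared a slide, the IL-3/GM-CSF day 6 array shared another with the combined day 3 arrays, and the EPO and IL-3 day 3 arrays shared the remaining slide. Well-above-background genes made up 54.8% of measured genes on the EPO array and 60.8% on the IL-3/GM-CSF array, the EPO array being the lowest of the 10 (54.8% to 67.0%). The median difference of all 13026 genes was 0.19, and 5342 of them (41.0%) lay within 1.5-fold. The balance of both directions moved with the scaling. With the percentile taken over probes well above background on all arrays, 1757 genes were higher under EPO and 3046 under IL-3/GM-CSF (36.6% higher under EPO, against 48.5% as reported). That scaling put the median difference of all genes at -0.08, and scaling to the array median put it at 0.32, with 2892 genes higher under EPO and 2409 under IL-3/GM-CSF (54.6% higher under EPO). The genes just inside the threshold were Hk1 and Spryd3 toward EPO and Ggta1 toward IL-3/GM-CSF. Just outside lay Letm2 toward EPO and Ccdc92 and Ier5l toward IL-3/GM-CSF, and the differences of all 6 round to 1.0 in size. In bulk RNA such as this, fewer cells of a type and less RNA per cell cannot be told apart.

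**Figure D1:**
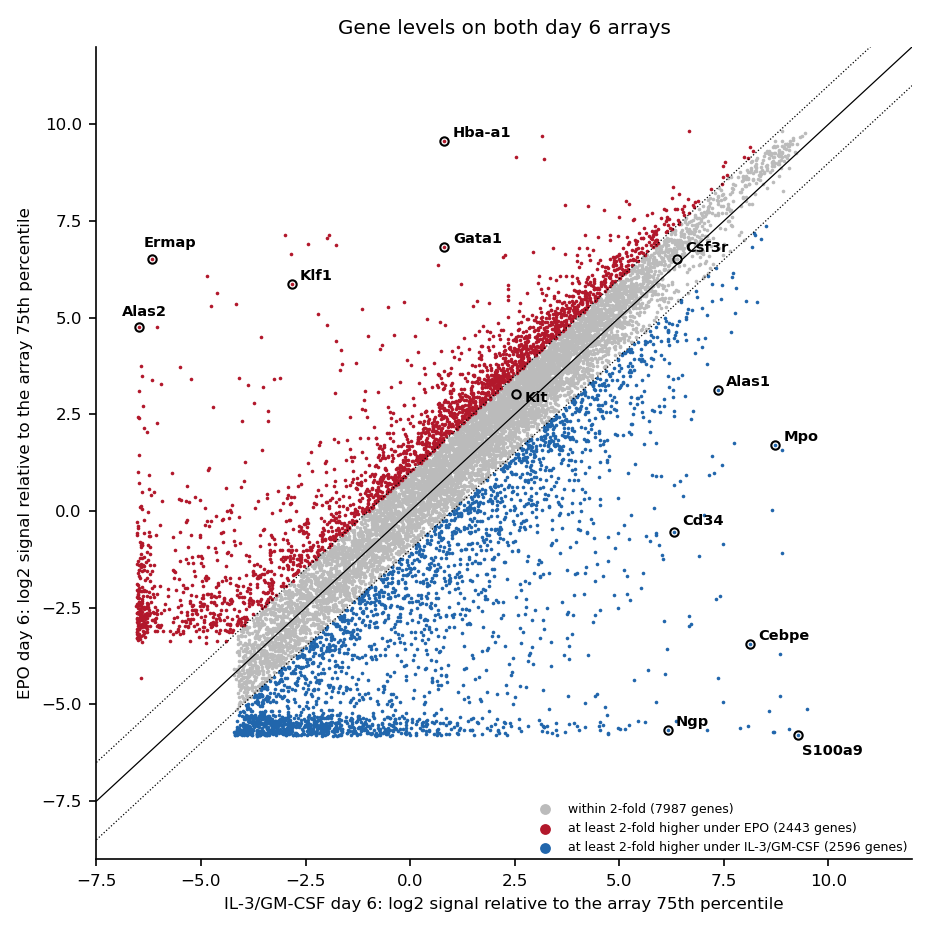
Each point is 1 of the 13026 genes measured, with its level under IL-3/GM-CSF on the horizontal axis and under EPO on the vertical axis (log2 relative to the array's 75th percentile). The solid line marks equal levels and the dotted lines 2-fold; 2443 genes lie above the band (red) and 2596 below it (blue), examples are circled and named, with Kit and Csf3r inside it, and the rows of points near the left and lower edges are genes not well above background on that array.

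The genes furthest apart were ranked by measured value or lower bound, with clone-type symbols (such as Gm or LOC with digits) left out. The 12 genes ranked highest toward EPO were Ermap, Pdia2, Hbb-bh1, Rhd, Cldn13, Slc4a1, Atp1b2, Tspan33, Acp5, Car1, Alas2 and Add2. Ermap, a red cell membrane protein of the immunoglobulin family, had a level of 6.53 under EPO and -6.16 under IL-3/GM-CSF, where it was not well above background, a difference of at least 1767-fold. The 2 other measured probes of Ermap gave differences of 3.23 and 11.17, so the size depends on the probe. Pdia2, a protein disulfide isomerase, was at least 1284-fold higher under EPO. Cldn13, a claudin, was at least 749-fold higher, and Acp5, an acid phosphatase, was 550-fold higher. Of the others, Rhd, Slc4a1 and Add2 encode membrane proteins of the red cell, Alas2 a haem enzyme and Hbb-bh1 an embryonic globin. Of the 12 genes ranked highest toward IL-3/GM-CSF, 8 belong to the stefin family of protease inhibitors (Cstdc5, Stfa2, Stfa2l1, Stfa1, Csta2, Stfa3, Cstdc4 and Csta3), and S100a9, S100a8, Ccl6 and Plac8 made up the rest. Their differences are lower bounds where EPO was not well above background, so the order among them is that of the bounds.

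Red cell genes were described first by their regulators. Of 17 measured genes encoding erythroid transcription factors and cofactors, 10 were higher under EPO and 2 were lower, with a median difference of 1.51 against 0.19 for all genes. Klf1, which activates adult beta-globin, had a level of 5.88 under EPO and -2.83 under IL-3/GM-CSF, a 419-fold difference. Gata1, the factor that erythroid cells require to mature, had levels of 6.82 and 0.82, a difference of 6.00. Its cofactor Zfpm1 (FOG-1) was 10.5-fold higher, Gfi1b, a repressor needed for erythroid growth, was 13.5-fold higher, and Bcl11a, which silences embryonic and fetal globin genes, was 13.9-fold higher. Tal1, Ldb1 and Lmo2, which form a complex with GATA1, were 4.38-fold, 4.07-fold and 3.13-fold higher. The exceptions were Nfe2, an activator of globin genes that also acts in platelet formation, with levels of 5.03 under EPO and 6.59 under IL-3/GM-CSF, and Cited2, with levels of 3.27 and 5.19.

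The levels of Klf1 and Gata1 on the other arrays show where the EPO array stood. Klf1 had a level of 1.76 in untreated cells, 6.07 and 2.60 at day 3 under EPO in Sca1-low and in Sca1-high cells, 5.05 and 0.20 at day 3 under IL-3, and -0.22 on the combined day 6 array. Gata1 had a level of 5.11 in untreated cells, 7.06 and 4.92 at day 3 under EPO, 6.21 and 3.27 at day 3 under IL-3, and 3.41 on the combined day 6 array. For both genes the day 6 EPO level was within 2-fold of both levels in Sca1-low cells at day 3, and the day 6 IL-3/GM-CSF level was the lowest of the arrays listed.

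Globin genes of the adult and the embryonic kind were higher under EPO. Of 9 measured globin genes 8 were higher under EPO, with a median difference of 6.64. Hba-a1, an adult alpha-globin gene, had a level of 9.56 under EPO and 0.82 under IL-3/GM-CSF, a 429-fold difference, and the beta-globin gene Hbb-bs had levels of 6.89 and -1.78, a 408-fold difference. The embryonic genes were higher as well: Hbb-bh1 by 1126-fold, Hbb-y by 60.1-fold, and Hba-x by at least 217-fold. Hbb-bh1 had a level of 1.34 in untreated cells, 6.73 (Sca1-low) and 1.53 (Sca1-high) in the day 3 EPO arrays, 3.60 and -0.35 in the day 3 IL-3 arrays and 7.15 on the EPO day 6 array. It was highest on the day 6 EPO array and was also high in the Sca1-low fraction under EPO. The theta-globin gene Hbq1b was the exception, at -2.95 under EPO and -2.30 under IL-3/GM-CSF. Several globin genes are near-identical copies, so their probes may read each other's RNA and the members are not independent.

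Haem synthesis genes were higher under EPO in 16 of 17 cases, with a median difference of 2.84. Alas2, the erythroid enzyme of the first step, was at least 517-fold higher, with a level of 4.75 under EPO and -6.49, not well above background, under IL-3/GM-CSF. Its level was not well above background in untreated cells (-6.92), was 0.95 and -3.07 in the day 3 EPO arrays (Sca1-low, then Sca1-high) and -1.21 and -4.44 in the day 3 IL-3 arrays, and was -0.79 on the combined day 6 array. The highest of these levels were, in order, those of the EPO day 6, EPO Sca1-low day 3, combined day 6 and IL-3 Sca1-low day 3 arrays. Other enzymes of the pathway differed less: Alad by 51.5-fold, Uros by 5.02-fold, Urod by 7.16-fold, Cpox by 20.3-fold, Ppox by 2.29-fold and Fech, which inserts the iron, by 7.14-fold. The mitochondrial transporters Slc25a38, which carries glycine, and Abcb10 were 5.57-fold and 11.3-fold higher. Hmox1, which degrades haem, was within 2-fold, at 3.35 and 2.47.

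Iron genes were mixed. Of 12 measured, 8 were higher under EPO and 1 was lower, with a median difference of 1.59. The transferrin receptor gene Tfrc had levels of 5.03 and 2.35, a 6.43-fold difference, and Steap3, which reduces the iron taken up, was 7.20-fold higher. Slc40a1, the iron exporter ferroportin, was at least 23.4-fold higher, with a level of 0.29 under EPO. Hfe, which binds the transferrin receptor, went the other way and was at least 15.4-fold higher under IL-3/GM-CSF. The iron response regulators Aco1 and Ireb2 were within 2-fold.

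Genes of the membrane skeleton and the surface of the red cell were among those furthest apart. Of 11 measured skeleton genes 9 were higher under EPO and 1 was lower, with a median difference of 5.96, or 3.69 with bounded members at their bound. Slc4a1 (band 3), the anion exchanger that anchors the skeleton, was at least 735-fold higher, Add2 (beta-adducin) at least 516-fold, Epb42 at least 79.2-fold and Ank1 at least 38.7-fold. Sptb and Tmod1, whose proteins belong to the same skeleton, were not well above background on either array. Tpm3 was the gene of the list that was higher under IL-3/GM-CSF, by 2.02-fold, but its other measured probes gave differences of -1.31 and 2.68, so its direction is unsettled. Of 16 measured surface and transporter genes 14 were higher under EPO and none was lower, with a median difference of 6.65 (5.99 with bounds). Rhd, of the Rh blood group complex, was at least 952-fold higher, and its partner Rhag had levels of 3.74 and -6.43, the latter not well above background. Kel was 140-fold and Art4 72.1-fold higher. Cd47 and Bsg, which many cell types carry, were within 2-fold.

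The receptor for EPO itself, Epor, had a level of 5.28 under EPO and -0.54 under IL-3/GM-CSF, a 56.4-fold difference. It had a level of 3.02 in untreated cells, 5.38 and 3.23 at day 3 under EPO in Sca1-low and in Sca1-high cells, 5.01 and 1.13 at day 3 under IL-3, and 0.71 on the combined day 6 array. In the Sca1-low fraction of day 3 the EPO and IL-3 levels were thus within 2-fold, and the IL-3/GM-CSF array at day 6 had the lowest of these levels.

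Genes for the removal of organelles and for red cell enzymes differed less. Of 11 measured genes for organelle clearance and enucleation 5 were higher under EPO and none was lower, with a median difference of 0.86. Trim10 and Trim58, ubiquitin ligases of late erythroid cells, were at least 164-fold and at least 14.8-fold higher, while the mitophagy receptor Bnip3l was within 2-fold at 5.80 and 5.00. Of 11 measured red cell enzymes 5 were higher and 1 was lower, with a median of 0.97. Car1, a carbonic anhydrase, was 525-fold higher and the peroxidase Prdx2 8.96-fold higher, whereas Bpgm, which makes 2,3-bisphosphoglycerate, was within 2-fold and Gpi1 was 2.19-fold lower.

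Promoter sequences of 3 genes of these lists are shown because they hold the GATA motif searched, AGATAA, on either strand within 150 bases before the start. They come from RefSeq (GRCm38.p6), are written 5′ to 3′ on the strand of the gene, and have the motif or its reverse complement in capitals. Alas2 lies at chrX:150547267-150547416 (plus strand), Epor at chr9:21963577-21963726 (minus strand) and Rhd at chr4:134864386-134864535 (plus strand), and their motifs begin 86, 54 and 43 bases before the start.
Alas2: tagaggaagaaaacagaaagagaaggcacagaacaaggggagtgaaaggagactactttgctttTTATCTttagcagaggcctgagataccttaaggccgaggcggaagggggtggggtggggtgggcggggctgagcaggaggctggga
Epor: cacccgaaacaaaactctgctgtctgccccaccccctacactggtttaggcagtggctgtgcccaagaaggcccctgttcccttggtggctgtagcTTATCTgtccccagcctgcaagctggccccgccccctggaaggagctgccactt
Rhd: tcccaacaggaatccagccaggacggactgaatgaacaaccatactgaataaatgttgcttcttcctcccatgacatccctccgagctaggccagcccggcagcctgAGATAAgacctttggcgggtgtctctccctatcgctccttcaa

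In the RefSeq windows from 250 bases before to 50 bases after each start, AGATAA on either strand was present in 7.5% of 13196 promoters of the genes measured. It was present in 10.0% of 2458 promoters of genes higher under EPO and in 14.5% of 241 promoters of genes at least 8-fold higher. The share was 8.3% for genes higher under IL-3/GM-CSF and 8.8% for those at least 8-fold higher. Among surface genes with a promoter in the table, 6 of 12 held the motif (Art4, Epor, Icam4, Kel, Rhd and Slc29a1). It was held by 2 of 14 haem genes (Alas2 and Cpox) and 1 of 7 globin genes, and also by 4 of 11 S100 and stefin genes and 4 of 10 mast cell and basophil markers. The KLF motif CCACACCC was present in 3.9% of all promoters, in 3.6% of those higher under EPO and in 5.0% of those higher under IL-3/GM-CSF. Each motif was counted on its own, whether or not its match overlapped that of another. These counts describe letters in a window and say nothing of binding.

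**Figure D2:**
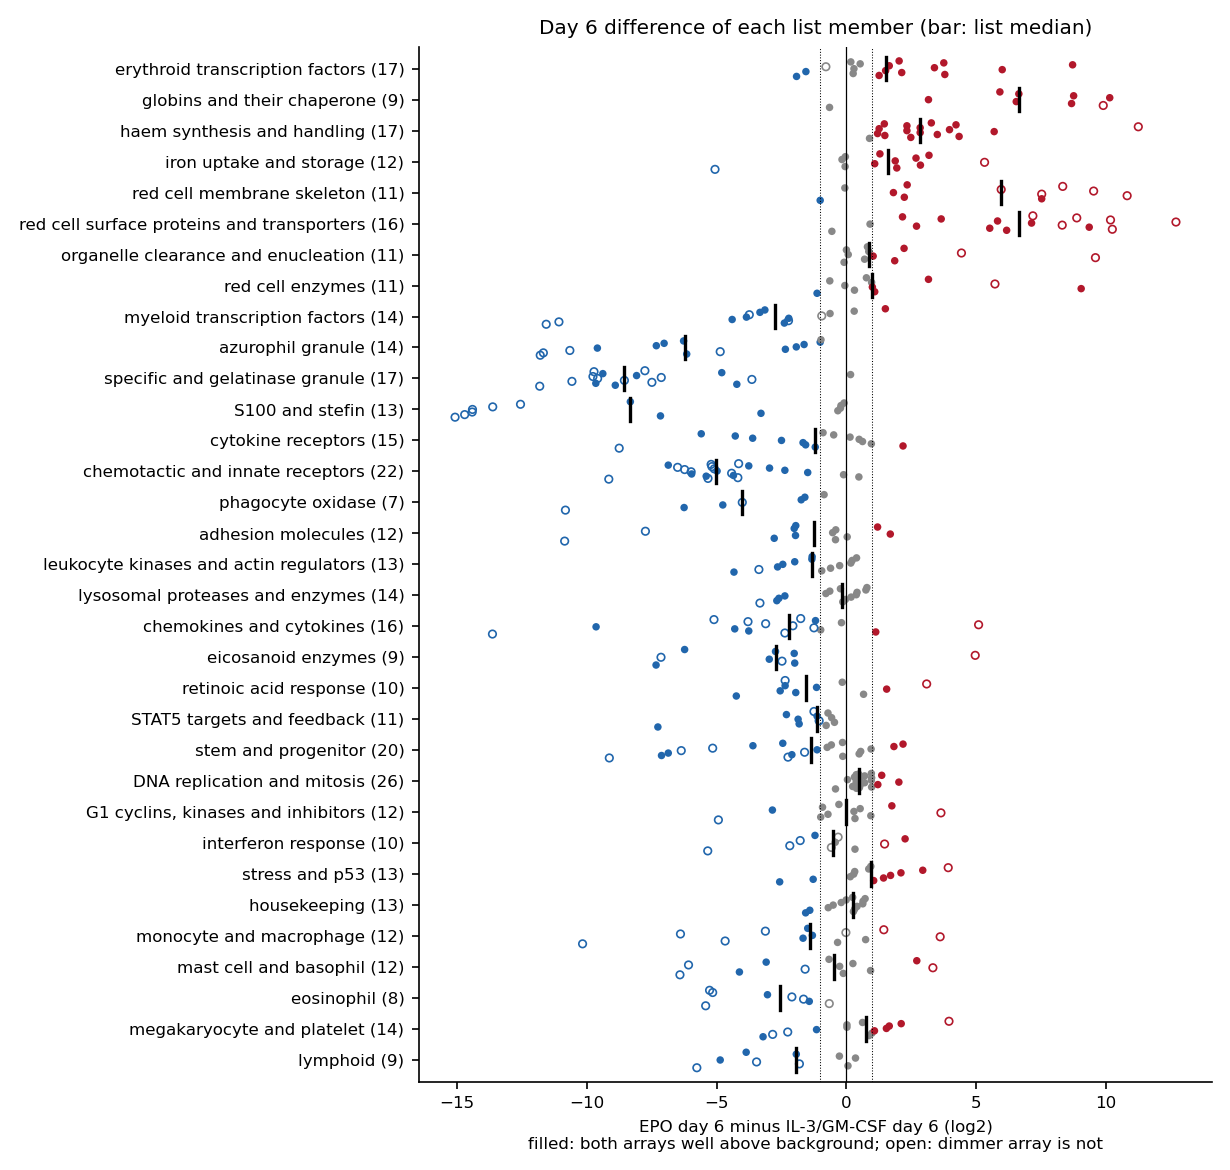
Difference at day 6 (EPO minus IL-3/GM-CSF, log2, horizontal axis) of the measured members of each gene list (vertical axis, number in parentheses), each point a gene as measured, open where the dimmer array was not well above background, with a bar at the list's median and dotted lines at 2-fold. Red cell lists lie to the right, with medians up to 6.65, and granule lists lie to the left, with medians down to -8.55.

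Granulocyte genes had the larger differences in the other direction. Of 14 measured genes encoding myeloid transcription factors 10 were higher under IL-3/GM-CSF and 1 was lower, with a median difference of -2.76. Cebpe, which drives the late granule genes, had a level of 8.13 under IL-3/GM-CSF and -3.43, not well above background, under EPO, a difference of at least 3015-fold. Gfi1, a repressor needed for neutrophil formation, had levels of 5.62 and -5.45 and was at least 993-fold higher. Cebpd, Cebpb and Spi1 (PU.1) were 10.1-fold, 8.81-fold and 5.23-fold higher, and Cebpa at least 3.53-fold. Irf8, known from monocytes, was at least 9.21-fold higher, while Maf, of macrophages, was not well above background on either array. Egr1, an immediate early gene, was 2.82-fold higher under EPO. Cebpe had a level of 1.04 in untreated cells, 5.85 in the Sca1-high and -0.44 in the Sca1-low fraction at day 3 under IL-3, and 7.58 on the combined day 6 array.

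Both waves of granule genes were higher under IL-3/GM-CSF. Of 14 measured azurophil genes 13 were higher there, with a median difference of -6.21, and of 17 measured specific and gelatinase granule genes 16 were higher, with a median of -8.55 (-8.11 with bounds). The azurophil genes differed in where untreated cells stood. Mpo (myeloperoxidase) had a level of 8.24 in untreated cells, 1.71 under EPO and 8.73 under IL-3/GM-CSF. Ctsg (cathepsin G) had a level of 8.09 in untreated cells, 1.57 under EPO and 8.90 under IL-3/GM-CSF. For these, the untreated and IL-3/GM-CSF levels were within 2-fold and the EPO level was the low one. Prtn3 (proteinase 3), with levels of -0.84 in untreated cells, 0.38 under EPO and 6.53 under IL-3/GM-CSF, and Ms4a3, with 0.37, -2.19 and 7.40, were higher on the IL-3/GM-CSF array than on both others. Elane (neutrophil elastase) differed by 3.82-fold, with levels of 2.95 and 4.88.

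For all 16 specific and gelatinase granule genes that were higher under IL-3/GM-CSF, the untreated level lay more than 2-fold below the IL-3/GM-CSF level. Ltf (lactoferrin) had a level of -2.77 in untreated cells, -1.16 under EPO and 6.91 under IL-3/GM-CSF, a 270-fold difference between the treatments. Camp (cathelicidin) was at least 843-fold higher, Lcn2 (lipocalin-2) 801-fold, Ngp (neutrophilic granule protein) at least 1437-fold, and the gelatinase gene Mmp9 at least 55.6-fold. At day 3 under IL-3 in the Sca1-high fraction Ltf had a level of 2.28, Lcn2 1.21, Camp -2.40 and Ngp -2.64, each at least 2-fold under its own day 6 level. On the combined day 6 array they had levels of 5.78, 5.72, 5.44 and 5.08. Chil3, also a neutrophil gene, was within 2-fold at 0.32 and 0.16.

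Promoters of 4 of these genes are shown for the motifs of the factors named above: TTGCNNAA (C/EBP) in Ngp and Ltf, and GAGGAAGT (PU.1) in Elane and Prtn3, with the motif or its reverse complement in capitals. They are RefSeq sequences of GRCm38.p6, 150 bases before the start, 5′ to 3′ on the plus strand, which is the strand of each gene. Ngp lies at chr9:110419658-110419807, Ltf at chr9:111019142-111019291, Elane at chr10:79886162-79886311 and Prtn3 at chr10:79879517-79879666. The motifs begin 138 and 11 bases before the start in Ngp, 75 in Ltf, 85 in Elane and 95 in Prtn3.
Ngp: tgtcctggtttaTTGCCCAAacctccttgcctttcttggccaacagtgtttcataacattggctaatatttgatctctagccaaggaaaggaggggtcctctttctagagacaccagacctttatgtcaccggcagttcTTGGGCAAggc
Ltf: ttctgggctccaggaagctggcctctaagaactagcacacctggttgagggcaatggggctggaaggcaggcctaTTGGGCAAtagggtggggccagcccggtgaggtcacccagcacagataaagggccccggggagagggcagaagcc
Elane: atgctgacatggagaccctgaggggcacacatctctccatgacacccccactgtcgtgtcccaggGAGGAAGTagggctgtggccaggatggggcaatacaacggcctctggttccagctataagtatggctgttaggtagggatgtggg
Prtn3: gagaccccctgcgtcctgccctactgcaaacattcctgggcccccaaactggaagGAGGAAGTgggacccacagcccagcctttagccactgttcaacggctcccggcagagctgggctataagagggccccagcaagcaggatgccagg

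TTGCNNAA on either strand was present in 9.1% of the promoters of all genes measured, in 11.5% of 2662 promoters of genes higher under IL-3/GM-CSF and in 15.4% of 697 promoters of genes at least 8-fold higher. The shares for genes higher under EPO were 8.6%, and 8.3% for those at least 8-fold higher. GAGGAAGT was present in 3.2% of all promoters, in 4.6% and 6.6% of the promoters toward IL-3/GM-CSF and in 2.4% and 2.5% of those toward EPO. The TATA box letters TATAAA were present in 8.4% of all promoters, in 8.5% and 11.6% toward EPO and in 10.8% and 12.2% toward IL-3/GM-CSF. Among specific granule genes 7 of 14 with a promoter in the table held TTGCNNAA (Adam8, Anxa1, Lcn2, Ltf, Mmp8, Ngp and Retnlg), and among azurophil genes 4 of 13 held GAGGAAGT (Ctsc, Elane, Mpo and Prtn3). Other lists held them less often: TTGCNNAA in 2 of 11 S100 and stefin and 3 of 19 chemotactic and innate receptor genes, GAGGAAGT in 2 of 14 specific granule genes. AGATAA was held by 3 of 14 specific granule genes, among them Ltf, where it is not marked above. Counts within lists are of genes, while the percentages are of promoters.

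Ranked by measured value or lower bound, S100 and stefin genes had the largest differences toward IL-3/GM-CSF. S100a9 and S100a8, whose proteins form calprotectin, the main cytosolic protein of neutrophils, were at least 12447-fold and at least 10754-fold higher under IL-3/GM-CSF. S100a8 had levels that were not well above background in untreated cells (-6.95), in both day 3 EPO arrays (-5.99 and -6.78) and under EPO at day 6 (-5.64). It was at -1.42 (Sca1-low) and 3.91 (Sca1-high) in the day 3 IL-3 arrays, 9.06 on the IL-3/GM-CSF day 6 array and 8.83 on the combined array. So S100a8 was not well above background on any array of EPO alone and was well above it on every array of IL-3 without EPO. This held for Stfa2l1 too, but not for all members. S100a9 and Stfa1 were well above background in Sca1-high cells under EPO at day 3, at -4.52 and -4.4. Stfa2 was so in both day 3 EPO arrays, at -3.47 and -3.77. Stfa1 was at least 8199-fold and Stfa2l1 at least 8336-fold higher, but stefin genes are near-identical copies in a cluster and their probes may read each other. Of 13 measured members of the list 9 were higher under IL-3/GM-CSF, and S100a10, S100a13, S100a1 and Cstb were within 2-fold.

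**Figure D3:**
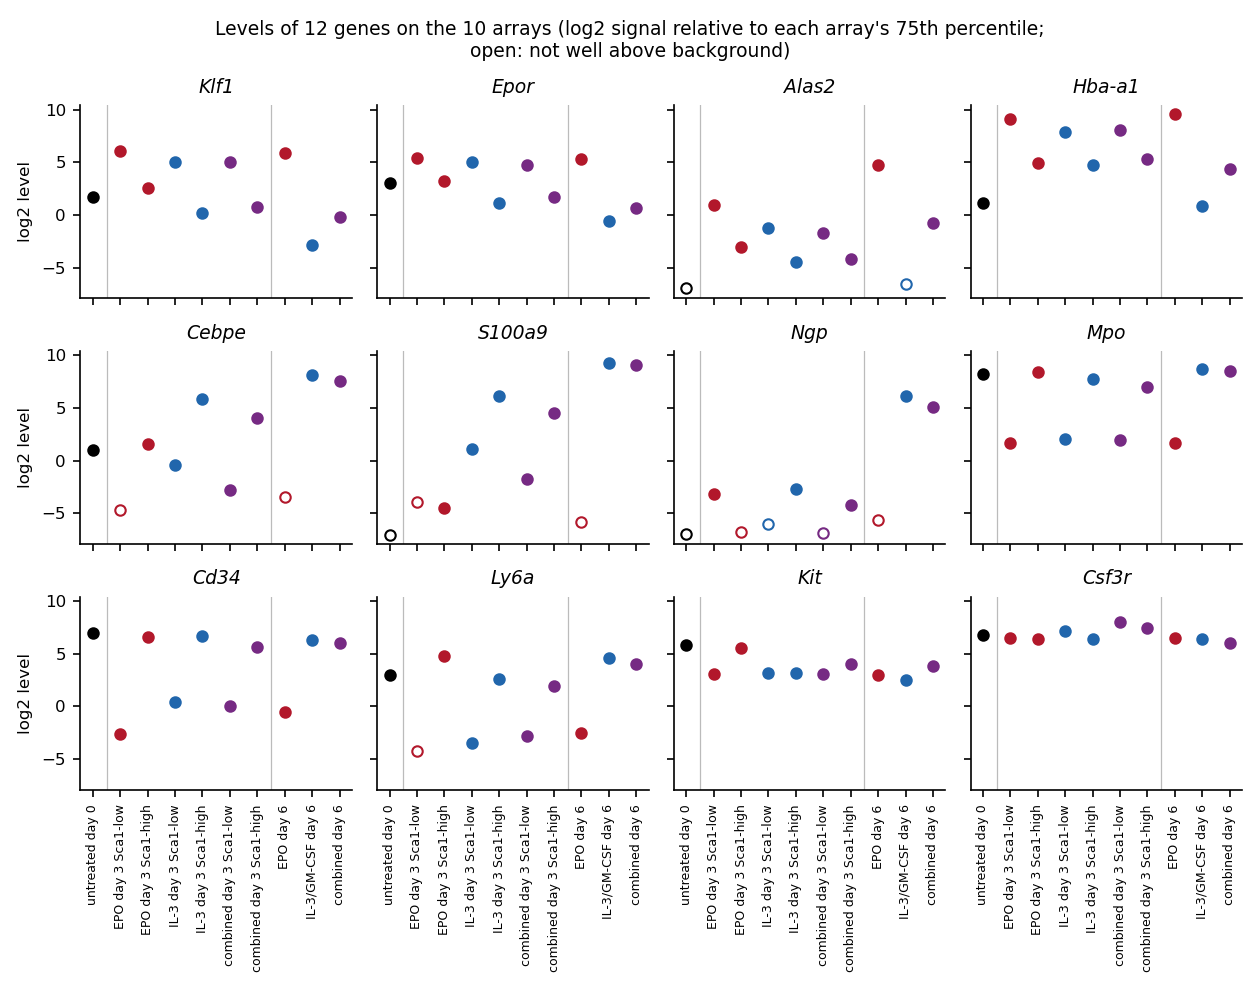
Levels of 12 genes (log2 relative to the array's 75th percentile, vertical axis) on the 10 arrays (horizontal axis: untreated in black, EPO in red, IL-3 or IL-3/GM-CSF in blue, combined in purple), open where a probe was not well above background. Klf1 and Epor are high on the EPO day 6 array and in Sca1-low cells at day 3, Alas2 is highest on the EPO day 6 array at 4.75, Cebpe, S100a9 and Ngp are high on the IL-3/GM-CSF and combined day 6 arrays, and Csf3r is at 6.51 and 6.37 on the compared arrays.

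Receptors were considered by ligand. Of 15 measured cytokine receptor genes 8 were higher under IL-3/GM-CSF and 1 was lower. Csf2ra, the GM-CSF receptor alpha chain, had levels of 2.97 under EPO and 6.57 under IL-3/GM-CSF, a 12.2-fold difference. It stood at 2.79 in untreated cells and at 3.36 and 4.18 in the day 3 IL-3 arrays, before GM-CSF was given. Il3ra and Csf2rb, the IL-3 receptor alpha chain and the shared beta chain, were 2.30-fold and 2.96-fold higher. Csf2rb2, a close copy of Csf2rb, was within 2-fold, and the probes of both may read each other. The decoy receptor gene Il1r2 was at least 183-fold higher. Csf3r, the receptor for G-CSF, was within 2-fold at 6.51 and 6.37, as was Kit, the receptor for stem cell factor, at 3.02 and 2.53. Flt3 was 4.53-fold higher under EPO.

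Genes by which neutrophils find and take up microbes were nearly all higher under IL-3/GM-CSF. Of 22 measured chemotactic and innate receptors 20 were higher, with a median difference of -5.04 (-4.07 with bounds). Trem3 was at least 228-fold higher, the IgG receptor gene Fcgr3 116-fold, the chemokine receptor gene Cxcr2 at least 71.5-fold and the formyl peptide receptor gene Fpr2 at least 36.6-fold. Fpr1 and Clec4d were within 2-fold. Of 7 measured genes of the phagocyte oxidase, which makes superoxide, 6 were higher. Ncf1 (p47-phox) was at least 1174-fold higher, Ncf4 76.3-fold, and the membrane subunits Cybb and Cyba at least 6.50-fold and 3.04-fold. Rac2, the GTPase of the complex, was within 2-fold.

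Adhesion genes went both ways. Of 12 measured, 6 were higher under IL-3/GM-CSF and 2 under EPO. Itgax was at least 86.1-fold and Itgam, the alpha chain of the CD11b/CD18 integrin, 4.03-fold higher under IL-3/GM-CSF. The 2 other measured probes of Itgam gave differences of -6.41 and -1.77. Itga4 and Itgb1, which pair as the integrin VLA-4, were 2.29-fold and 3.22-fold higher under EPO, but the other measured probe of Itga4 was within 2-fold, at a difference of 0.60. Of 13 measured leukocyte kinases and actin regulators 7 were higher under IL-3/GM-CSF, led by Lcp1 (L-plastin) at 20.1-fold, and 6 were within 2-fold. Lysosomal genes differed little, with 4 of 14 higher under IL-3/GM-CSF and a median of -0.18.

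Among 16 measured chemokine and cytokine genes 12 were higher under IL-3/GM-CSF and 2 under EPO, with a median difference of -2.22 (-1.46 with bounds). Ccl6 and Ccl9, chemokines of myeloid cells, were at least 5437-fold and 800-fold higher under IL-3/GM-CSF. Il6 had a level of 4.47 in untreated cells, -2.74 under EPO and 1.02 under IL-3/GM-CSF, so both treatments lay below the untreated array. Il10 was at least 16.3-fold higher under EPO. It was well above background under EPO at -0.24 and was not so under IL-3/GM-CSF at -5.33. Of 9 measured eicosanoid genes 8 were higher under IL-3/GM-CSF, among them Ptgs1 by 161-fold, Alox5 by at least 124-fold and Lta4h by 6.62-fold. Pla2g7 was at least 6.66-fold higher under EPO, and of the 10 arrays it was well above background on the EPO day 6 array alone.

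The arms also differed in ATRA, while EPO, IL-3 and GM-CSF share a signal, STAT5, whose activity was not measured here. Of 10 measured retinoic acid genes 6 were higher under IL-3/GM-CSF and 2 under EPO. Dhrs3, a reductase that retinoic acid is known to induce, had levels of 0.31 under EPO and 4.55 under IL-3/GM-CSF, an 18.9-fold difference, but untreated cells stood at 3.31. Cyp26a1 and Stra6, widely used as retinoic acid targets, were not well above background on either array. Cyp26b1 was higher in untreated cells, at -0.03, than on either day 6 array, at -5.57 and -3.21. Of 11 measured STAT5 genes 7 were higher under IL-3/GM-CSF and none under EPO, with a median of -1.13. Cish, a feedback inhibitor, had a level of -0.13 in untreated cells, 4.75 under EPO and 5.88 under IL-3/GM-CSF, so both treated arrays lay far above the untreated one. Id1 was 153-fold and Pim1 4.96-fold higher under IL-3/GM-CSF, and Bcl2l1, which encodes the survival protein BCL-XL, was 3.63-fold higher.

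Progenitor genes were split. Of 20 measured, 11 were higher under IL-3/GM-CSF and 2 under EPO. Cd34 had a level of 6.92 in untreated cells, -0.55 under EPO and 6.31 under IL-3/GM-CSF, a 116-fold difference. Ly6a, which encodes Sca1, had levels of 3.02 in untreated cells, -2.57 under EPO and 4.55 under IL-3/GM-CSF, a 139-fold difference. Erg was at least 31.4-fold and Meis1 at least 13.6-fold higher under IL-3/GM-CSF. On these probes the IL-3/GM-CSF array was within 2-fold of the untreated array for Cd34, Erg and Meis1, and the EPO array was the low one. Other progenitor genes were within 2-fold between the treatments, among them Myb at 4.66 and 5.40, Myc at 3.82 and 3.97 and Gata2 at 3.06 and 2.51. Adgrg1 was 3.55-fold higher under EPO.

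Cell cycle genes differed little. Of 26 measured genes of DNA replication and mitosis 23 were within 2-fold, with a median of 0.48 against 0.19 for all genes. The exceptions, all higher under EPO, were Ccne1 (cyclin E1) by 4.05-fold, Cdc6 by 2.57-fold and Tyms by 2.32-fold. Mki67 had levels of 6.89 and 6.45. Of 12 measured G1 regulators 2 were higher under EPO, Cdkn1c by at least 3.00-fold and Rb1 by 3.38-fold, and 2 under IL-3/GM-CSF, Cdkn2d by 7.19-fold and Cdkn2a by at least 12.3-fold. Cdkn2a was well above background at -0.71 on the IL-3/GM-CSF array and not so on the combined day 6 array, and its other probe, not well above background on either, gave the opposite sign. Of 13 measured stress and p53 genes 6 were higher under EPO and 2 lower. Ddit3 was 7.68-fold and the asparagine synthetase gene Asns 4.29-fold higher, both of the amino acid response, while their regulator Atf4 was within 2-fold. Housekeeping genes had a median difference of 0.24, and its sign turned under 3 of the other ways of scaling or normalizing. Pgk1 and Tuba1a of that list were 2.96-fold and 2.66-fold higher under IL-3/GM-CSF. Interferon genes went both ways, with 4 of 10 measured higher under IL-3/GM-CSF and 2 under EPO. For 6 of these 10 the dimmer array was not well above background. Of all genes measured, 19.9% were higher under IL-3/GM-CSF and 18.8% under EPO. The counts of G1 regulators and the interferon count toward EPO were near these shares.

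Pairs of related genes, 23 in all and chosen by hand with earlier results known, were set side by side, the gene better known from red cells named first where there is one. In 7 pairs the first gene was higher under EPO and the second under IL-3/GM-CSF, and in a further 6 the first was higher under EPO with the second within 2-fold. No share over all genes stands beside these counts. Alas2 was at least 517-fold higher under EPO while Alas1, the form of other tissues, was 18.8-fold higher under IL-3/GM-CSF, at 3.13 and 7.36. The other measured probe of Alas1 gave a difference of -2.26, against -4.23 on the probe used, so the size depends on the probe. Gfi1b differed by 3.75 and Gfi1 by -11.07. Pklr, the red cell and liver pyruvate kinase, was at least 13.3-fold higher under EPO and Pkm 7.28-fold higher under IL-3/GM-CSF. Prdx2 and Prdx5, Hk1 and Hk3, and Epor and Csf2rb, receptor genes for different ligands, were also among the 7. Gata1 differed by 6.00 and Gata2 by 0.55. The glucose transporter genes Slc2a1 and Slc2a3 were both higher under IL-3/GM-CSF, by 6.45-fold and 6.55-fold.

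**Figure D4:**
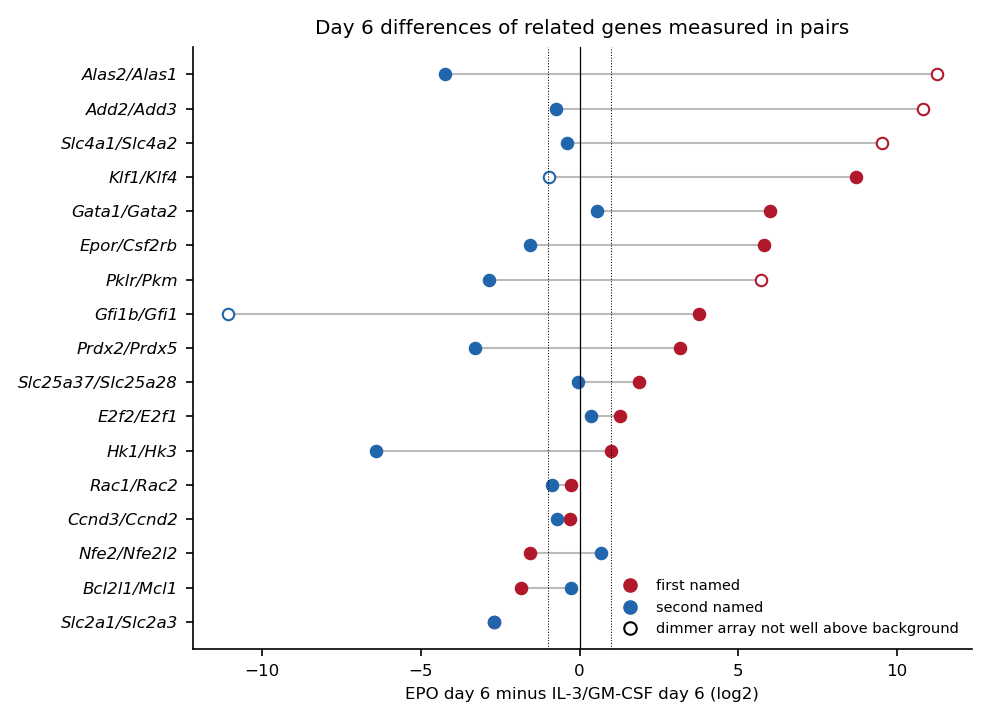
Differences at day 6 (EPO minus IL-3/GM-CSF, log2, horizontal axis) of both genes of 17 pairs in which both were measured (vertical axis), the first-named gene in red and its relative in blue, open where the dimmer array was not well above background, with dotted lines at 2-fold. The first-named gene lies to the right of its relative in most pairs, and to the left of it for Nfe2 and Bcl2l1.

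The day 3 arrays share no array with the day 6 comparison, and the 4 EPO and IL-3 day 3 arrays shared a slide. At day 3, before GM-CSF, 12.1% of the genes measured in the Sca1-low fraction were at least 2-fold higher under EPO than under IL-3 and 13.1% were lower. In the Sca1-high fraction 6.78% were higher and 8.96% lower. Of the genes higher under EPO at day 6, 407 of 2196 measured (18.5%) were also higher under EPO in the Sca1-low fraction and 4.6% were lower. In the Sca1-high fraction 288 of 2234 (12.9%) were higher and 1.9% lower. Of the genes higher under IL-3/GM-CSF at day 6, 619 of 1894 (32.7%) were higher under IL-3 in the Sca1-low fraction, with 7.0% the other way, and 741 of 2323 (31.9%) in the Sca1-high fraction, with 6.0% the other way. Both fractions showed the day 6 direction for 75 of 2144 genes higher under EPO (3.5%) and for 222 of 1866 genes higher under IL-3/GM-CSF (11.9%). Of all 12404 genes measured in both fractions, 165 (1.3%) were higher under EPO in both and 271 (2.2%) were higher under IL-3 in both.

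Counts of the lists at day 3 stand beside those of day 6, with the day 3 arrays being sorted fractions in which other members were measured. Specific and gelatinase granule genes were higher under IL-3 at day 3 in 2 of 10 measured in the Sca1-low fraction and in 11 of 14 in the Sca1-high fraction, against 16 of 17 at day 6. Chemotactic and innate receptor genes were higher in 5 of 12 and in 16 of 21, against 20 of 22 at day 6. S100 and stefin genes were higher in 7 of 13 and 8 of 13. Red cell surface genes were higher under EPO in 3 of 17 in the Sca1-low fraction and in 8 of 16 in the Sca1-high fraction, against 14 of 16 at day 6. Haem genes were higher in 6 of 17 and 3 of 17, against 16 of 17 at day 6. Globin genes were higher in 5 of 9 in the Sca1-low fraction. In the Sca1-high fraction 1 of 8 was higher under EPO and 2 under IL-3.

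**Figure D5:**
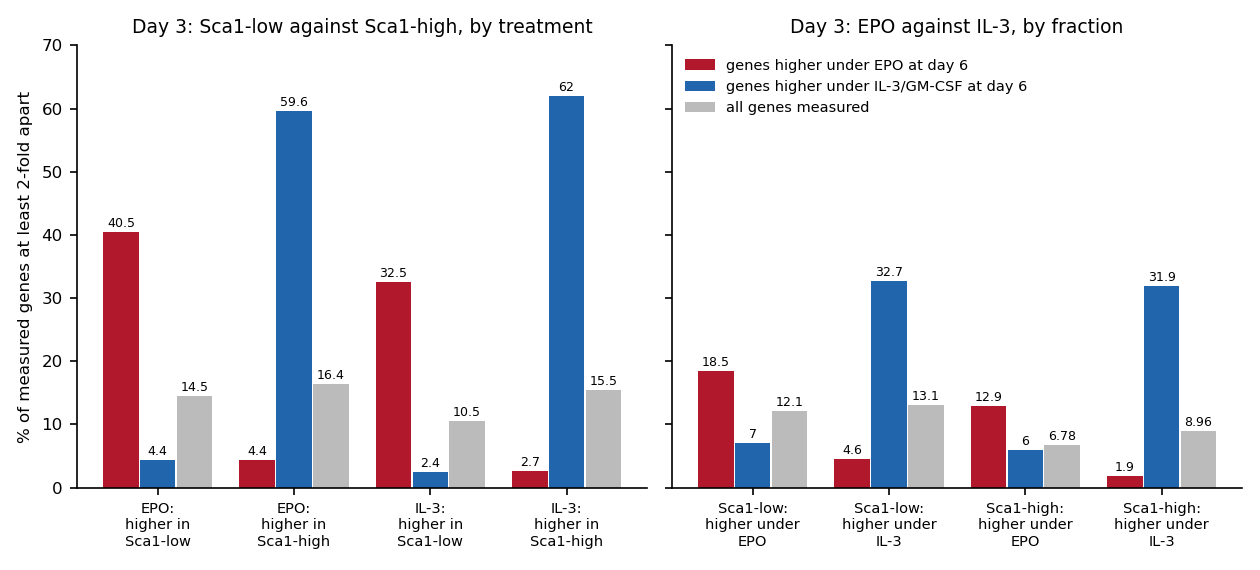
Share of genes at least 2-fold apart at day 3 (percent of genes measured, vertical axis) among genes higher under EPO at day 6 (red), genes higher under IL-3/GM-CSF at day 6 (blue) and all genes measured (grey). On the left, between the Sca1 fractions within a treatment, blue bars reach 59.6% and 62.0% toward Sca1-high; on the right, between EPO and IL-3 within a fraction, the highest bars are 32.7% and 31.9%.

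The same genes were then set against the Sca1 fractions within each day 3 treatment. Under EPO, 14.5% of all genes measured were at least 2-fold higher in the Sca1-low fraction and 16.4% in the Sca1-high fraction, and under IL-3 the shares were 10.5% and 15.5%. Of genes higher under EPO at day 6, 907 of 2237 (40.5%) were higher in the Sca1-low fraction under EPO and 4.4% were higher in the Sca1-high fraction. Under IL-3 736 of 2268 (32.5%) were higher in the Sca1-low and 2.7% in the Sca1-high fraction. Of genes higher under IL-3/GM-CSF at day 6, 1228 of 2059 (59.6%) were higher in the Sca1-high fraction under EPO and 4.4% in the Sca1-low fraction. Under IL-3 1438 of 2321 (62.0%) were higher in the Sca1-high fraction and 2.4% in the Sca1-low fraction. The fraction comparisons and the treatment comparisons of day 3 use the same 4 arrays, so their shares are not independent. Klf1, for example, was at 5.05 in the Sca1-low and 0.20 in the Sca1-high fraction under IL-3, and Cd34 at 0.44 and 6.64.

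The median level of the genes higher under EPO at day 6 was 1.05 in untreated cells, 1.94 and 1.14 in Sca1-low and in Sca1-high cells under EPO at day 3, 1.63 and 0.81 under IL-3, and 1.62 and 0.69 under the combined treatment. At day 6 it was 2.17 under EPO and 0.36 under IL-3/GM-CSF, values that the rule itself sets apart, and 0.65 on the combined array. For the genes higher under IL-3/GM-CSF the medians were -1.13 in untreated cells, -2.59 and -1.11 under EPO at day 3, -2.10 and -0.30 under IL-3, and -2.21 and -0.56 under the combined treatment. At day 6 they were -3.17, 0.15 and -0.21 on the EPO, IL-3/GM-CSF and combined arrays. The untreated array thus lay between the day 6 arrays for both sets.

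The combined day 6 array received EPO as well, and its levels are set beside both. It shared a slide with the EPO array but not with the IL-3/GM-CSF array, so against the latter slide and treatment cannot be told apart. The median level of the specific and gelatinase granule genes was -4.77, 4.17 and 3.30 on the EPO, IL-3/GM-CSF and combined arrays. For the globin genes it was 9.10, 0.82 and 4.40, and for the membrane skeleton genes 4.75, -4.08 and -0.09. On the combined array the granule median was thus within 2-fold of that on the IL-3/GM-CSF array, and the globin median lay between the others. Hba-a1 had levels of 9.56, 0.82 and 4.40 in the same order, and Rhd 5.63, -4.61 and -3.63.

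Markers of other blood cells that such cultures could hold were summed as linear signals relative to the 75th percentile. Mast cell and basophil markers summed to 609 in untreated cells and to 39.0, 85.2 and 254 on the EPO, IL-3/GM-CSF and combined arrays, and 5 of 12 measured were higher under IL-3/GM-CSF and 2 under EPO. Single genes dominated these sums. Cpa3 alone gave 3.37, 58.6 and 172 on the EPO, IL-3/GM-CSF and combined arrays, while Il1rl1 gave 24.6, 3.75 and 20. Monocyte and macrophage markers summed to 35.4 in untreated cells and to 8.12, 44.0 and 32.2 on the same 3 arrays, with 7 of 12 measured higher under IL-3/GM-CSF and 2 higher under EPO (Cx3cr1 by at least 6.57-fold and Ms4a6c by at least 2.72-fold). Adgre1, a macrophage surface marker, was at least 496-fold higher under IL-3/GM-CSF and gave 24.7 of the sum there, with 12.5 from Csf1r, while C1qa, Mrc1, Vcam1 and Ly86 were not well above background on either array. Eosinophil markers summed to 16.5, 5.14, 42.4 and 37.5 in the same order, with 7 of 8 higher under IL-3/GM-CSF, among them Epx, at least 13.7-fold. Siglecf, 8.23-fold higher, alone gave 4.78 of the sum under EPO and 39.3 under IL-3/GM-CSF. Megakaryocyte markers summed to 160, 63.6, 38.5 and 60.8 and went both ways, with 5 of 14 higher under EPO and 4 under IL-3/GM-CSF. Pf4 alone gave 34.9 of the sum under EPO and 12 under IL-3/GM-CSF. Lymphoid markers summed to 205, 11.1, 142 and 231, and 6 of 9 were higher under IL-3/GM-CSF. Gzmb and Nkg7, also known from other blood cells, gave 55.3 and 79.9 of the sum under IL-3/GM-CSF, while Rag2, Pax5, Ebf1 and Il7r were not well above background on either array. The part of these cells in the granulocyte and chemokine differences was not tested.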

How the data were processed

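RNA from EML-C1 cells was measured on 10 1-colour Agilent arrays, of which the EPO and IL-3/GM-CSF arrays of day 6 form the comparison. Per the file headers, the authors extracted the scanner images with Agilent Feature Extraction 11.0.1.1, and the deposited intensity is the processed signal, background-subtracted within each array and not scaled between arrays. The deposited value table holds the same intensity values. Here log2 of the deposited signal minus the array's 75th percentile over non-control spots was used. Spots flagged as outliers were left out, repeat spots averaged, and the brightest probe of a symbol kept. Probes were named by matching the accessions in the files to the RefSeq table of GRCm38.p6, which named 27235 of 55681 probes. The 75th percentiles were 478.0 and 631.9 on the EPO and IL-3/GM-CSF arrays, and the number of arrays limits the precision. No test was run, since each treatment has 1 array. Named genes were the 12 largest differences each way, the 4 largest of each list with members against their list's direction, gene pairs, threshold neighbours and genes opposite at day 3. The 12 each way were ranked by measured value or lower bound, clone-type symbols left out. The text also names other list members, chosen with their values in view. The members and lists were chosen with earlier results of these data known. Hbb-b1, Ahsp, Olfm4, BC100530, BC117090, Clec7a, Mx1, Mx2, Hspa1b, Cd68 and Tpsab1 were matched to no probe. The normexp alternative used median spot signals, since the mean was not in the tables used, with limma 3.58.1 in R 4.3.3. Other steps used Python 3.11.15 with pandas 2.3.3 and numpy 2.4.6. RefSeq promoters matched 10471 of the 13026 genes. The series text speaks of duplicates, but each of the 10 arrays is labelled replicate 1 and no group has another array. A few genes are not reported here.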

Additional observations from a re-analysis of the deposited data

Results flagged for a closer look

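The genes named here were apart at day 6 and at least 2-fold apart the opposite way in both Sca1 fractions at day 3, on arrays that the day 6 comparison did not use. Up to 4 each way with the largest day 6 difference are named, clone-type symbols left out. The change of direction between the days was not tested, with 1 array a group. Prxl2a, a peroxiredoxin-like gene, differed by 6.56 at day 6 toward EPO, and by -1.98 and -2.85 in Sca1-low and in Sca1-high cells at day 3. Paqr6 differed by 2.63 at day 6 and by -2.68 and -1.45 at day 3. Gsta3, a glutathione transferase gene, differed by 1.23 at day 6 and by -1.84 and -1.44 at day 3.

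Serpinb1a, an inhibitor of neutrophil proteases, differed by -6.27 at day 6 toward IL-3/GM-CSF, and by 1.24 and 2.34 toward EPO at day 3. The nucleoside transporter gene Slc28a2 differed by -4.31 at day 6 and by 1.27 and 2.02 at day 3. Its close copy Slc28a2b, whose probe may read the same RNA, differed by -4.85 at day 6 and by 1.53 and 1.89 at day 3. Laptm4b differed by -3.66 at day 6 and by 1.27 and 1.79 at day 3. Of the genes measured in all 3 comparisons, 5 of 2144 higher under EPO and 21 of 1866 higher under IL-3/GM-CSF were opposite in both fractions. Of all 12404 genes measured in both fractions, 271 (2.2%) were higher under IL-3 in both and 165 (1.3%) higher under EPO in both.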

How the results depend on the processing

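No paired analysis was possible because each treatment has 1 array, and no replicate could be left out. The counts of 2443 genes higher under EPO and 2596 higher under IL-3/GM-CSF stayed within 1.5 times under the other scalings, quantile normalization (2114 and 2568), normexp with quantile normalization (1695 and 1968), other probe rules and outlier spots kept. With genes required to be well above background on both arrays, 1965 were higher under EPO and 1316 under IL-3/GM-CSF (59.9% higher under EPO). A 4-fold threshold left 793 and 1490 on measured differences, and 596 and 1208 with bounds. Normexp with quantile normalization moved 121 of 209 named genes by at least 0.5 log2. Under it the median difference moved by less than 0.5 log2 in 24 of 33 lists. Single values changed sign for the median of the lymphoid markers with no filter on dim probes (0.06), for Tpm3 with the mean of its probes (0.12) or the dimmest (2.68), and for Cdkn2a with the dimmest (0.73). The causes were not tested. Dim signals limit the folds, which are bounds for 1280 of the genes higher under IL-3/GM-CSF.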

Other observations

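Probes without a gene symbol were not part of the comparison. Of 11275 such probes well above background on at least 1 of the 2 day 6 arrays, 1942 were higher under EPO and 2276 under IL-3/GM-CSF, together 37.4%. On the combined day 6 array 259 of the 13713 genes well above background there were at least 2-fold above both single treatments. At least 2-fold below both single treatments lay 285 genes, a count without a share over all genes beside it, on the combined array. Hspbap1 had a level of 0.26 there and was not well above background on either of the others, and Gpr65 (-1.19), Bhlhb9 (-1.05) and Pdzph1 (-0.86) were alike.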
